A study of Danio rerio with 24 samples.

Results

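The microRNAs (miRNAs) dre-miR-101a, dre-miR-101b and dre-miR-338, written below without the species prefix, were followed in whole zebrafish embryos at 36 and 60 hours post-fertilization (hpf). Both array types carried all 3 names, among 231 names on the Agilent arrays and 224 on the Exiqon arrays. They were picked by name because their levels tended to be higher after exposure to 2,3,7,8-tetrachlorodibenzo-p-dioxin (TCDD), outside the miR-23, miR-24 and miR-27 clusters, so the comparison of TCDD with its solvent is given here as a description without a test. The change between stages was not used to pick them and was tested. It rests on the same arrays, however, so it is not fully independent of the picking. Any gap in stage change between TCDD and DMSO embryos is made up of the TCDD differences that chose the miRNAs. Embryos of the wildtype TL strain were placed in TCDD or in the solvent DMSO at 30 hpf for 1 h, and all groups share that handling. The 4 groups were DMSO at 36 hpf, TCDD at 36 hpf, DMSO at 60 hpf and TCDD at 60 hpf, each with 3 biological replicates on each array type. The sources used here give neither the dose of TCDD nor the number of embryos in a sample, nor do they say whether both array types received the same RNA. RNA came from whole embryos, so fewer cells of a type and less RNA per cell cannot be told apart in any value below.

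A mature miRNA guides a silencing complex to messenger RNAs by base pairing, above all through the seed near its 5′ end. In mammals miR-101 represses EZH2, the subunit of Polycomb repressive complex PRC2 that methylates histone H3, and miR-101a and miR-101b are close sequence variants. MiR-338 is a miRNA of the nervous system, which in mammals lies in an intron of AATK, the gene of a neuronal kinase, and acts with miR-219 in oligodendrocyte maturation. TCDD is a ligand of the aryl hydrocarbon receptor, a transcription factor, and it is toxic to fish embryos.

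The Agilent probes are shown because they set what each signal can mean. Each of the 3 miRNAs had 2 probes, with 10 spots per probe, and the longer probe was the brighter one and stood for the name. The capital in the miR-101 probes marks the single base at which the probes of miR-101a and miR-101b differed over 19 aligned bases, C13T counted from 1 at the probe's 5′ end.
miR-101a, probe used: cttcagttatcaCagtact
miR-101a, shorter probe: cttcagttatcaCagtac
miR-101b, probe used: cttcagttatcaTagtactgt
miR-101b, shorter probe: cttcagttatcaTagtactg
The RNA that pairs with each probe in use runs the other way, and the capital marks the same position.
RNA paired with the miR-101a probe: aguacuGugauaacugaag
RNA paired with the miR-101b probe: acaguacuAugauaacugaag
The longest run that either miR-101 probe shared with the other was 12 bases, and with the probe of any other name 7 bases. At its 3′ end, which faces the 5′ end of the RNA, the miR-101b probe shared 6 bases with a probe of miR-144, an erythroid miRNA, in capitals here.
miR-101b, probe used: cttcagttatcatagTACTGT
miR-144 probe: agtacatcatctaTACTGT

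The miR-338 probes are set beside a probe of miR-7a, a miRNA of neurons and endocrine cells, because the capitals mark a run of 13 bases that they share. This was the longest run between a miR-338 probe and the probe of another name, followed by 12 bases for fru-miR-7 and 11 bases for miR-7b.
miR-338, probe used: CAACAAAATCACTgatgctgg
miR-338, shorter probe: CAACAAAATCACTgatgctg
miR-7a probe: aCAACAAAATCACTagtcttcc
RNA paired with the miR-338 probe: ccagcaucAGUGAUUUUGUUG
What the shared runs add to any signal was not tested. The Exiqon arrays held 2 probes of miR-101a, 2 of miR-101b and 1 of miR-338, and their sequences were not used here.

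The Agilent files place the longer probes on the genome build danRer5. The miR-101a probe was placed at chr6:33181702-33181719, on the plus strand. The miR-338 probe was placed on the minus strand at chr12:15768123-15768143, at chr12:35022159-35022179 and on a scaffold, and the miR-101b probes were unmapped. In the RefSeq gene table of the later assembly GRCz12tu, the miR-101a hairpin lay in no other gene, with LOC137495976 and jak1 nearest, and the miR-101b hairpin lay within the spans of rcl1, a gene of ribosomal RNA processing, and of si:ch73-55i23.1. The table lists 3 miR-338 hairpins, within the spans of aatkb, of aatka and of LOC137496810. Exon or intron positions were not used here.

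On Agilent, a level is the log2 of a probe's spot intensity divided by the array's 75th percentile over 185 probes detected on all 12 arrays, so higher values are less negative. Signals were floored at -5.19 on this log2 scale, and detection of a probe required a share of at least 0.5 of spots flagged by the scanner software as well above background. Between 191 and 277 of 490 probes were detected per array, and 134 of 231 names were tested. On Exiqon, a level is the loess-normalized log2 ratio of the sample over a common reference pool, with 241 to 255 of 255 probes detected and 222 of 224 names tested. All 3 miRNAs were tested on both array types, through 4 of 6 Agilent probes and 5 of 5 Exiqon probes that passed the detection filter. Levels of different probes are not set against each other. With 3 arrays per group precision is limited, and the standard error of a stage change in DMSO embryos had a median over names of 0.0776 log2 on Agilent and 0.0436 on Exiqon. Of 11 miRNAs that mark tissues of the embryo (muscle, brain, blood, skin, liver and lens), 9 were detected on every Agilent array and 11 on every Exiqon array.

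One Agilent array stood apart. Replicate 2 of the 60 hpf DMSO group detected 191 of 490 probes, the fewest of all 12, and 0% of the spots of the miR-101a and miR-101b probes were well above background there. The miR-338 probes were well above background in all spots used on every Agilent array. Stage changes and TCDD differences of the miR-101 pair in the main setting are given with and without this array where they rest on it. Alternative scalings and likeness of pattern are given only with it. On Exiqon, the image names of the 3 arrays of the 36 hpf DMSO group carry another number than those of the other 9, read here as a scan number. The group and what this number marks cannot be told apart wherever this group is compared. Later image analysis took in replicate 3 of the 36 hpf TCDD group and replicates 1 and 3 of the 60 hpf TCDD group.

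MiR-338 rose most clearly of the 3 between 36 and 60 hpf, in both treatments and on both array types. On Agilent its levels in DMSO embryos were -2.68, -2.62 and -2.54 at 36 hpf and -1.10, -1.12 and -1.09 at 60 hpf. In TCDD embryos they were -2.37, -2.46 and -2.49 at 36 hpf and -0.88, -1.01 and -0.99 at 60 hpf. Every array at 60 hpf lay above every array at 36 hpf, as for 46.3% of names in DMSO embryos and 52.6% in TCDD embryos. The stage change was 1.51 ± 0.06 log2 (standard error, n = 3 arrays per group), a 2.85-fold rise, in DMSO embryos (limma, Benjamini-Hochberg adjusted p = 2.56e-10) and 1.48 ± 0.06 in TCDD embryos (limma, adjusted p = 3.24e-10). In DMSO embryos 47.8% of the 134 names were called higher at 60 hpf and 32.1% lower, and in TCDD embryos 50.7% and 31.3%, so a rise by itself was common. The split depended on the scaling: 64 names were called higher and 43 lower in DMSO embryos, but 45 and 66 with the 75th percentile over all probes and 47 and 63 under quantile normalization. In TCDD embryos the 3 scalings gave 68 and 42, 48 and 62, and 45 and 61. MiR-338 ranked 19 from the highest change in DMSO embryos and 23 in TCDD embryos. Its shorter probe gave 1.37 ± 0.05 and 1.53 ± 0.05.

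**Figure D1:**
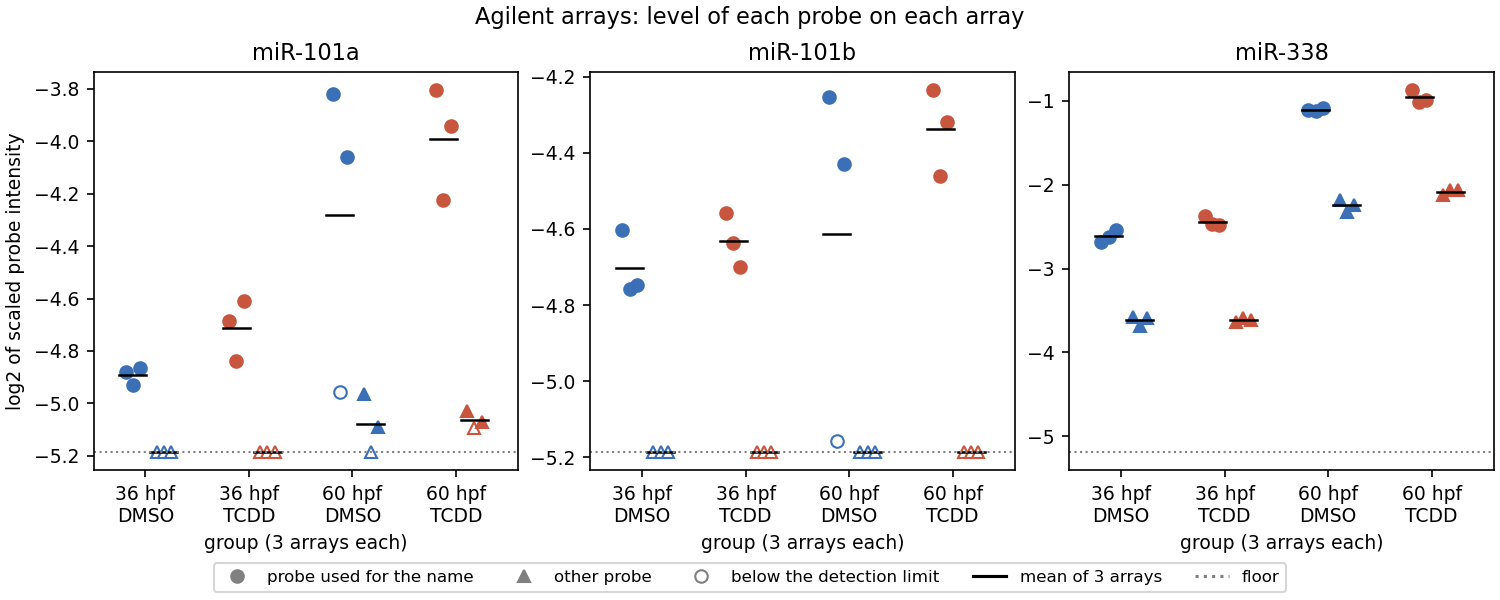
Level of every Agilent probe of the 3 miRNAs on each array (log2 of the scaled intensity, with a separate vertical scale per panel) in the 4 groups. Circles are the probe used for the name, triangles the other probe, open symbols arrays on which the probe was not detected, bars the mean of 3 arrays, and the dotted line the floor at -5.19. MiR-338 at 60 hpf lies above 36 hpf on every array, and the miR-101a and miR-101b circles of 1 array of the 60 hpf DMSO group are open and low.

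On Exiqon the miR-338 log2 ratios in DMSO embryos were -0.53, -0.49 and -0.55 at 36 hpf and 0.31, 0.37 and 0.48 at 60 hpf. In TCDD embryos they were -0.54, -0.42 and -0.41 at 36 hpf and 0.57, 0.54 and 0.62 at 60 hpf. With flagged spots left out, few spots of the 1 probe stood behind each value. In DMSO embryos these were 3, 2 and 1 spots at 36 hpf and 1, 2 and 4 at 60 hpf. In TCDD embryos they were 3, 3 and 4 spots at 36 hpf and 3, 4 and 4 at 60 hpf. The stages again did not overlap, as for 54.6% of names in DMSO embryos and 54.1% in TCDD embryos. The sign of the ratio turned from below to above the reference pool, as a reference of pooled samples allows for any name that changes between stages. The stage change was 0.91 ± 0.05 log2 in DMSO embryos (1.88-fold, limma adjusted p = 4.13e-10) and 1.03 ± 0.05 in TCDD embryos (limma adjusted p = 9.41e-11). On Exiqon 49.1% of 222 names were called higher and 18.5% lower at 60 hpf in DMSO embryos, and 52.3% and 17.6% in TCDD embryos, and miR-338 ranked 34 and 29 from the highest. These are 109 names higher and 41 lower in DMSO embryos and 116 and 39 in TCDD embryos, which became 122 and 9, and 150 and 7, with median centring. Each array type has its own scale, so its size on one is not set against the other.

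MiR-101a was higher at 60 than at 36 hpf on Exiqon in every array, while on Agilent its direction depended on the scaling. On Exiqon its log2 ratios in DMSO embryos were -0.50, -0.54 and -0.49 at 36 hpf and 0.07, 0.04 and -0.02 at 60 hpf. In TCDD embryos they were -0.52, -0.58 and -0.55 at 36 hpf and 0.22, 0.15 and 0.23 at 60 hpf. The stages did not overlap in either treatment, as for 54.6% of names in DMSO embryos and 54.1% in TCDD embryos. The stage change was 0.54 ± 0.04 log2 (1.45-fold, limma adjusted p = 7.66e-09) in DMSO embryos and 0.75 ± 0.04 (1.68-fold, limma adjusted p = 1.59e-10) in TCDD embryos. Within the first image analysis day the change in TCDD embryos was 0.70, and within the second it was 0.77. The other Exiqon probe of miR-101a did not show this change. Its stage change was -0.02 ± 0.06 in DMSO embryos and 0.04 ± 0.06 in TCDD embryos, and its reference channel lay below local background on every array. With the mean of both probes in place of the brighter one, the change in DMSO embryos was 0.26 (limma adjusted p = 5.08e-05).

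On Agilent the miR-101a levels in DMSO embryos were -4.88, -4.93 and -4.86 at 36 hpf and -3.82, -4.96 and -4.06 at 60 hpf, the value of -4.96 being the array on which the probe was not detected. In TCDD embryos they were -4.69, -4.84 and -4.61 at 36 hpf and -3.81, -4.22 and -3.94 at 60 hpf. The stages overlapped in DMSO embryos through that 1 array and did not overlap in TCDD embryos, as for 52.6% of names. The stage change was 0.61 ± 0.23 log2 (limma adjusted p = 0.0268) in DMSO embryos and 0.72 ± 0.23 (limma adjusted p = 0.0115) in TCDD embryos, but it was -0.06 (limma adjusted p = 0.801) and -0.14 (limma adjusted p = 0.535) under quantile normalization. With replicate 2 of the 60 hpf DMSO group left out, the change in DMSO embryos was 0.95 (limma adjusted p = 2.03e-05). Without any other single array of the 2 groups it lay between 0.38 and 0.63 and no longer passed. On the first slide, with 1 array per group, the change in DMSO embryos was 1.06, and on the second, with 2 per group, it was 0.39. The shorter Agilent probe of miR-101a was detected on 0 of 6 arrays at 36 hpf, and at 60 hpf on 2 of 3 in each treatment.

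The stage change of miR-101b passed the test in TCDD embryos on Exiqon and in neither treatment on Agilent, and its size, call and, on Agilent, direction depended on the scaling and on 1 array. On Exiqon its log2 ratios in DMSO embryos were -0.23, -0.17 and -0.21 at 36 hpf and -0.16, -0.11 and -0.12 at 60 hpf. In TCDD embryos they were -0.22, -0.28 and -0.23 at 36 hpf and -0.06, -0.10 and -0.01 at 60 hpf. The 60 hpf arrays lay above the 36 hpf arrays in both treatments, which held for 54.6% of names in DMSO embryos and 54.1% in TCDD embryos. The stage change was 0.07 ± 0.03 log2 in DMSO embryos, which did not pass (limma adjusted p = 0.0812, 95% confidence interval -0.00 to 0.14), and 0.18 ± 0.03 in TCDD embryos, a 1.14-fold rise (limma adjusted p = 0.000245). In TCDD embryos 52.3% of the 222 names were called higher, and miR-101b ranked 100 from the highest. The median of all names there was 0.14 log2, and miR-101b stood 0.04 above it. With median centring the changes were 0.28 (limma adjusted p = 0.0152) and 0.47 (limma adjusted p = 0.000367). Nothing is read from the gap between treatments, since it is made up of the TCDD differences that chose the miRNAs. The other Exiqon probe of miR-101b gave 0.13 ± 0.04 and 0.16 ± 0.04.

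**Figure D2:**
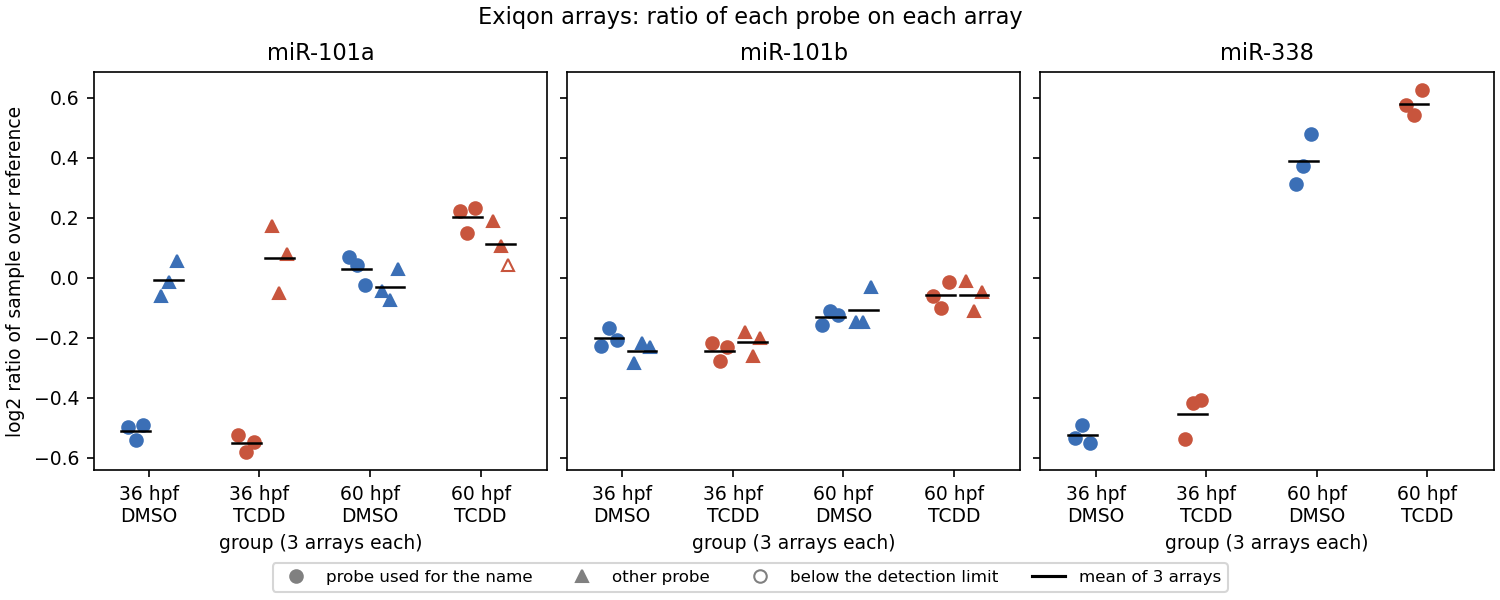
Log2 ratio of sample over reference pool for every Exiqon probe of the 3 miRNAs on each array, in the 4 groups. Circles are the probe used for the name, triangles the other probe, the open symbol an array on which the probe was not detected, and bars the mean of 3 arrays. The used probes of miR-101a and miR-338 are higher at 60 hpf on every array, the other miR-101a probe stays near 0, and miR-101b moves from about -0.20 to -0.13 in DMSO embryos.

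On Agilent the miR-101b levels in DMSO embryos were -4.60, -4.76 and -4.75 at 36 hpf and -4.25, -5.16 and -4.43 at 60 hpf, with -5.16 on the array that did not detect the probe. In TCDD embryos they were -4.56, -4.64 and -4.70 at 36 hpf and -4.24, -4.46 and -4.32 at 60 hpf. The stages overlapped in DMSO embryos and lay apart in TCDD embryos, as for 52.6% of names. The stage change was 0.09 ± 0.18 log2 (limma adjusted p = 0.654, 95% confidence interval -0.30 to 0.48) in DMSO embryos and 0.29 ± 0.18 (limma adjusted p = 0.150, interval -0.10 to 0.68) in TCDD embryos. It turned below 0 in both treatments with the 75th percentile over all probes, at -0.17 and -0.04, and under quantile normalization, where -0.52 (limma adjusted p = 0.00322) and -0.47 (limma adjusted p = 0.00593) passed as lower. With replicate 2 of the 60 hpf DMSO group left out, the changes were 0.36 (limma adjusted p = 0.00253) and 0.29 (limma adjusted p = 0.00408) and passed. The shorter miR-101b probe was detected on 0 arrays, so its values lie at the floor.

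**Figure D3:**
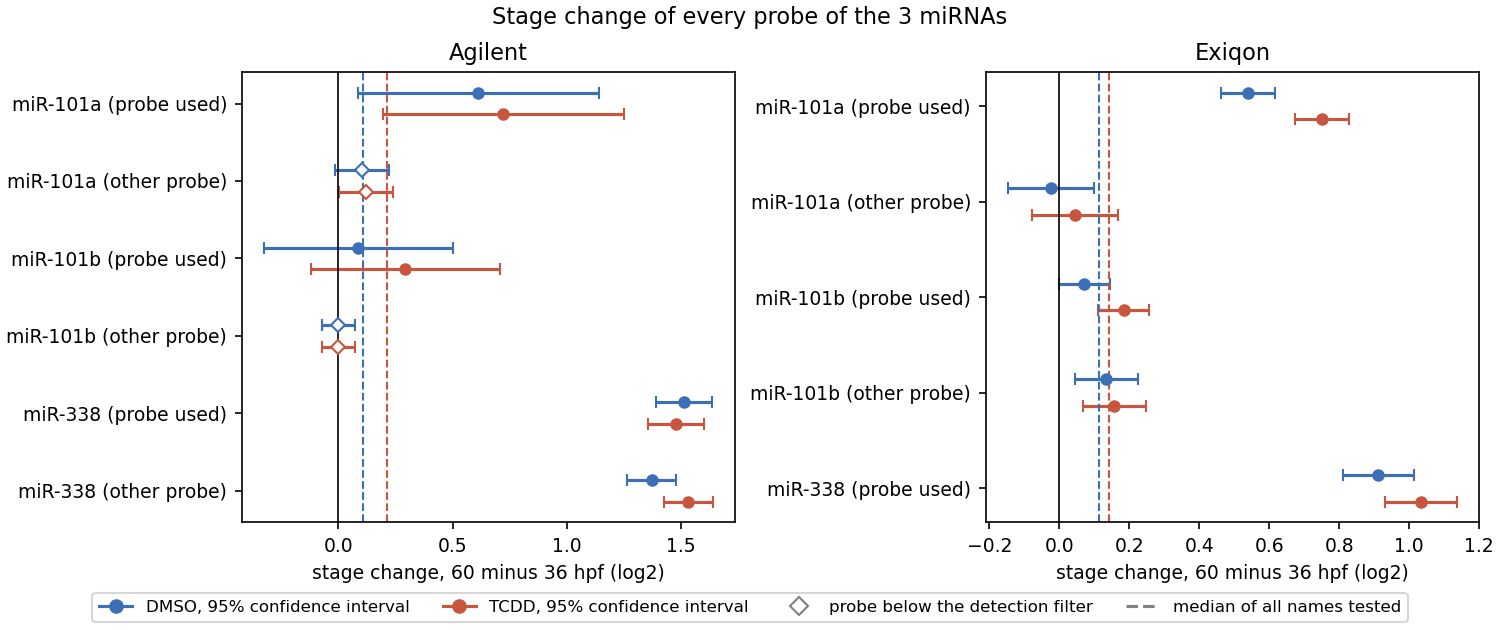
Stage change (60 minus 36 hpf, log2) of every probe of the 3 miRNAs in DMSO and in TCDD embryos, with its 95% confidence interval, on each array type. Open diamonds are probes below the detection filter, and dashed lines the median of all names tested. Both Agilent probes of miR-338 and its Exiqon probe lie far above the median line, while the used miR-101b probe lies near it in DMSO embryos.

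The scaling of the arrays moved the middle of all names, so each change was also set against it. The median stage change over all 134 Agilent names in DMSO embryos was 0.11 log2, and it moved by -0.29 with the 75th percentile over all probes and by -0.22 under quantile normalization. Relative to the median, miR-338 stood at 1.40, 1.35 and 1.23 under the 3 scalings, miR-101a at 0.50, 0.53 and 0.06, and miR-101b at -0.02, 0.01 and -0.40. On Exiqon the median over 222 names in DMSO embryos was 0.11, and it moved by 0.20 with median centring. Relative to it, miR-338 stood at 0.80 with loess and 0.73 with median centring, miR-101a at 0.43 and 0.24, and miR-101b at -0.04 and -0.03. MiR-101b thus lay close to the middle of all names in DMSO embryos in 4 of these 5 settings, and miR-338 lay above it in all 5. MiR-101a lay above it in all 5 in DMSO embryos, by as little as 0.06 under quantile normalization, and in TCDD embryos it stood at -0.03 under that setting.

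Differences between the miRNAs within an array do not depend on a scaling factor that all probes of an array share. Loess on Exiqon and the floor on Agilent are not such factors, so the differences can still move with the processing. On Exiqon in DMSO embryos, median centring moved miR-101a from 0.43 to 0.24 relative to the median, and miR-101b from -0.04 to -0.03. On Agilent, normexp background correction moved them from 0.50 to 0.37 and from -0.02 to -0.00 in DMSO embryos. In TCDD embryos it moved miR-101a from 0.51 to 0.15 and miR-101b from 0.08 to -0.10. Median centring on Exiqon in TCDD embryos moved miR-101a from 0.61 to 0.44 and left miR-101b at 0.04. The pair test was not rerun under these settings. The 3 pairs were compared on each array type by how their within-array difference changed from 36 to 60 hpf over both treatments, with a two-sided exact permutation test of the stage labels within each treatment. There were 400 permutations, the smallest p they can give is 0.005, and the 6 p-values were adjusted together. All 6 comparisons gave p = 0.005 and adjusted p = 0.005 by this exact test, over 12 arrays each. In DMSO embryos 107 of 134 Agilent names and 150 of 222 Exiqon names were called changed between stages. Other pairs of names could therefore reach this p as well, and their share was not computed. On each array type the difference for miR-338 and miR-101b is the sum of those for the other pairs, so the 6 comparisons are not separate results. On Agilent, the stage change of miR-101a exceeded that of miR-101b by 0.48, that of miR-338 exceeded miR-101a by 0.83, and that of miR-338 exceeded miR-101b by 1.30. On Exiqon these differences were 0.52, 0.33 and 0.85. In each pair the within-array differences at 60 hpf lay above those at 36 hpf on all 12 arrays. For miR-101a minus miR-101b on Exiqon, for example, they ran from -0.37 to -0.27 at 36 hpf and from 0.10 to 0.28 at 60 hpf. For the probes used, the order of stage changes was miR-338 over miR-101a over miR-101b on both array types. The other Exiqon probes gave the opposite order for the miR-101 pair, with -0.02 and 0.04 for miR-101a and 0.13 and 0.16 for miR-101b in DMSO and TCDD embryos, and that order was not tested. With the mean of both Exiqon probes of each name, the changes in DMSO embryos were 0.26 for miR-101a and 0.10 for miR-101b. In the authors' deposited Exiqon table, the differences were 0.63 for miR-101a over miR-101b, 0.22 for miR-338 over miR-101a and 0.85 for miR-338 over miR-101b. On Agilent the array that did not detect the miR-101 probes enters these differences with values near the floor. Leaving out 1 array at a time gave 0.45 to 0.52, 0.66 to 0.94 and 1.17 to 1.39 on Agilent, with exact permutation p-values of 0.005 to 0.01.

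**Figure D4:**
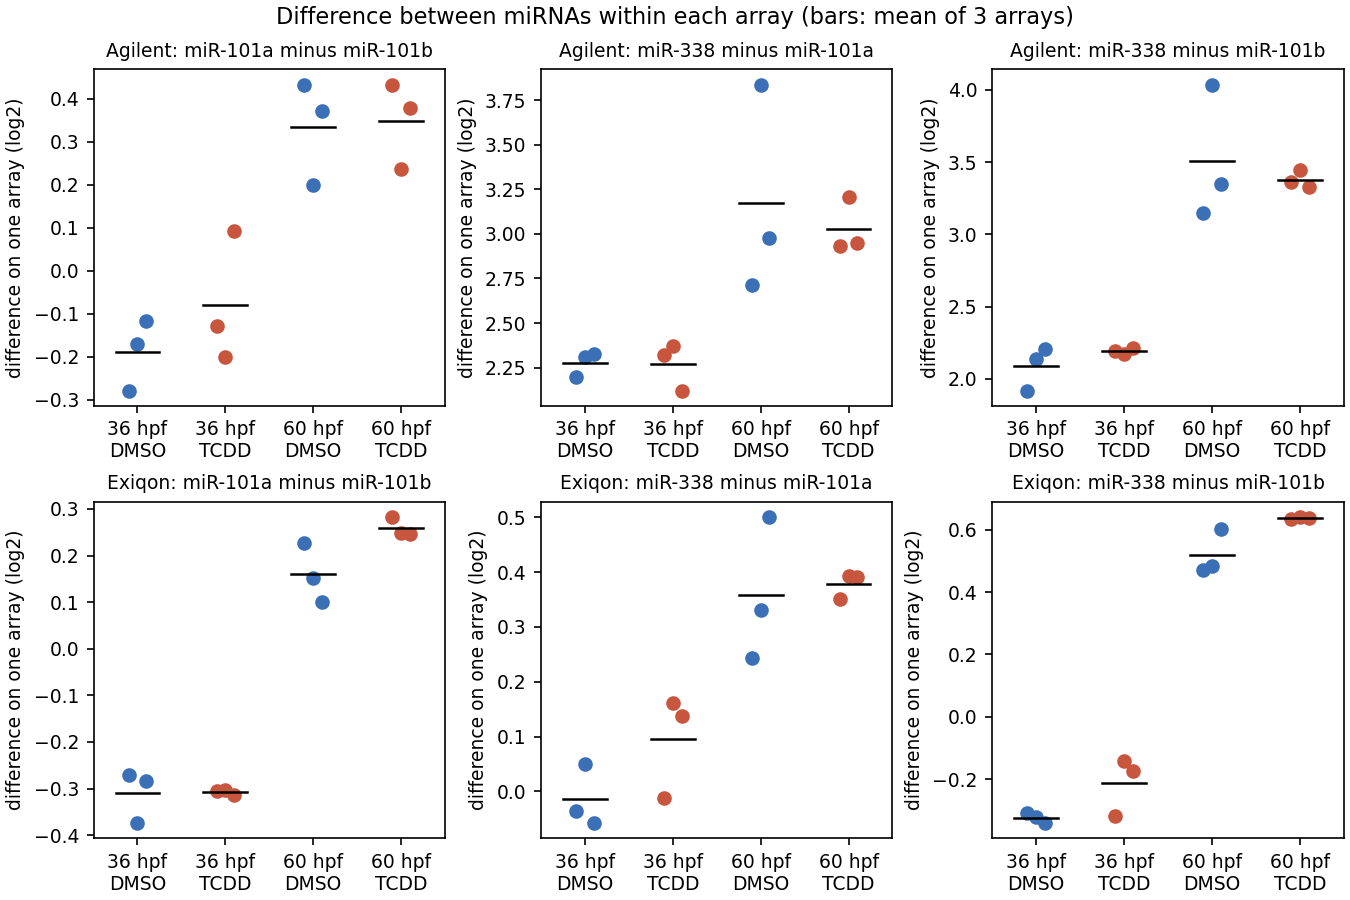
Difference between 2 of the miRNAs on each array (log2, in arbitrary units set by the probes) in the 4 groups, with bars at the mean of 3 arrays. In all 6 panels the 6 arrays of 60 hpf lie above the 6 arrays of 36 hpf, and the high point of the 60 hpf DMSO group in the Agilent panels with miR-338 is the array that did not detect the miR-101 probes.

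The TCDD groups were mostly higher than the DMSO groups for these miRNAs, which is how they were chosen, and the differences were small. MiR-338 at 60 hpf was 0.14 ± 0.06 log2 higher with TCDD on Agilent (1.10-fold) and 0.19 ± 0.05 higher on Exiqon (1.14-fold), and no TCDD array was as low as the highest DMSO array on either. At 36 hpf it was 0.18 ± 0.06 higher on Agilent, again without overlap, and 0.07 ± 0.05 higher on Exiqon, with overlap. The shorter Agilent probe of miR-338 differed by 0.00 ± 0.05 at 36 hpf and by 0.16 ± 0.05 at 60 hpf. On the sample channel alone, without the reference, the Exiqon difference at 60 hpf was 0.01. Within the first image analysis day, with 1 TCDD array, that difference was 0.15. Relative to the median of all names, the Exiqon difference was 0.19 at 60 hpf and 0.08 at 36 hpf. With flagged spots kept, these became 0.14 and 0.06. For the probes used, the group means on both array types rose in the order DMSO at 36 hpf, TCDD at 36 hpf, DMSO at 60 hpf and TCDD at 60 hpf. The place of TCDD over DMSO in this order is how the miRNA was chosen, so nothing is read from it.

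MiR-101a at 60 hpf was 0.29 ± 0.23 log2 higher with TCDD on Agilent and 0.17 ± 0.04 higher on Exiqon. The Agilent groups overlapped, and the Exiqon groups did not. With replicate 2 of the 60 hpf DMSO group left out, the Agilent difference was -0.05. Slide 1 alone gave 0.02, and slide 2, which holds that array, gave 0.43. On the first image analysis day alone, with 1 TCDD array, the Exiqon difference was 0.12, and on the sample channel alone it was -0.00. At 36 hpf miR-101a was 0.18 ± 0.23 higher on Agilent without overlap, and on Exiqon the difference was -0.04 ± 0.04 with overlap. The other Exiqon probe of miR-101a differed by 0.07 ± 0.06 at 36 hpf and by 0.14 ± 0.06 at 60 hpf.

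MiR-101b at 60 hpf was 0.28 ± 0.18 log2 higher with TCDD on Agilent, with overlap, and 0.07 ± 0.03 higher on Exiqon, where the groups lay apart. With replicate 2 of the 60 hpf DMSO group left out, the Agilent difference was 0.00, and with normexp background correction it was 0.01. On the first image analysis day alone, with 1 TCDD array, the Exiqon difference at 60 hpf was 0.03. At 36 hpf the differences were 0.07 ± 0.18 on Agilent and -0.04 ± 0.03 on Exiqon, both with overlap. The other Exiqon probe of miR-101b differed by 0.03 ± 0.04 at 36 hpf and by 0.05 ± 0.04 at 60 hpf. At 60 hpf all 3 miRNAs had every TCDD array above every DMSO array on Exiqon, as did 14.4% of names, and 1 of the 3 had on Agilent, as did 8.96% of names. At 36 hpf this held for 2 of the 3 on Agilent, beside 6.77% of names, and for 0 of the 3 on Exiqon, beside 7.37% of names. Since these differences chose the miRNAs, nothing is read from these shares. The 36 and 60 hpf comparisons have no arrays in common.

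**Figure D5:**
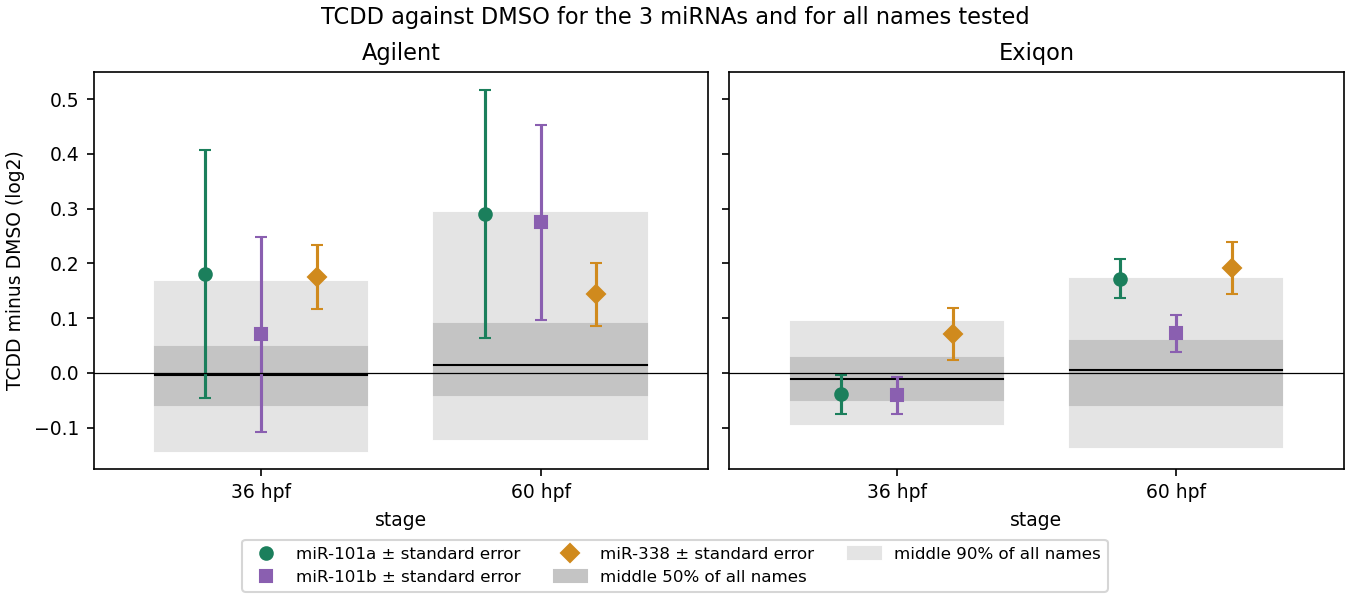
TCDD minus DMSO (log2) for the 3 miRNAs at 36 and 60 hpf on each array type, with standard errors, over grey bands for the middle 50% and 90% of all names tested and a line at their median. The values chose the miRNAs and are descriptive; at 36 hpf on Exiqon miR-101a and miR-101b lie at -0.04, and the Agilent standard errors of the miR-101 pair are the widest.

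Other miRNAs linked to the same targets or cells were read from short lists. MiR-26a, miR-26b and miR-214 repress EZH2 in mammals, as miR-101 does. On Exiqon 3 of 3 rose between stages in DMSO embryos (limma, adjusted over all names), by 0.41, 0.40 and 0.93 log2, beside 49.1% of all names, with a list median of 0.41 beside 0.11 for all names. On the Exiqon sample channel alone 2 of 3 did, with miR-26b at 0.17 and not called. On Agilent 3 of 3 rose, by 0.21, 0.37 and 1.06 log2, beside 47.8% of all names, but with the 75th percentile over all probes 1 of 3 did, with miR-26a at -0.13, and under quantile normalization 2 of 3 did, with miR-26a at -0.12. MiR-214 is the member that rose under each of these scalings.

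MiR-219, the usual partner of miR-338 in oligodendrocytes, was not called higher at 60 hpf on either array type. Its stage change in DMSO embryos was 0.01 ± 0.14 log2 on Agilent (limma adjusted p = 0.964) and -0.24 ± 0.10 on Exiqon (limma adjusted p = 0.0505), where 1 of the 3 arrays at 60 hpf had no value. In TCDD embryos it fell by 0.24 on Exiqon (limma adjusted p = 0.0323) and was 0.28 ± 0.14 on Agilent (limma adjusted p = 0.0849). Its Agilent arrays of TCDD embryos at 60 hpf all lay above those at 36 hpf, as for 52.6% of names. The direction depended on the scaling: with median centring the Exiqon values were 0.13 in DMSO and 0.30 in TCDD embryos and were not called. In DMSO embryos on Agilent, miR-219 was called lower under quantile normalization, at -0.56, and with the 75th percentile over all probes, at -0.33. On the Exiqon sample channel alone it was called lower at -0.44. None of these scalings called it higher. MiR-138, also of that lineage, rose by 1.64 log2 on Agilent and by 1.40 on Exiqon in DMSO embryos.

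Of 7 neural miRNAs, 4 were tested on Agilent and all 4 rose in DMSO embryos, and on Exiqon 6 of 7 rose, beside 47.8% and 49.1% of all names called higher. MiR-9, of neural progenitors, rose by 2.09 log2 on Agilent and 2.46 on Exiqon, and miR-124, of neurons, rose by 1.62 on both. MiR-218a, of motor neurons, rose by 0.86 and 0.89, and miR-132 was at 0.10 ± 0.07 on Exiqon and did not pass (limma adjusted p = 0.240). The list median was 1.24 on Agilent and 0.94 on Exiqon, beside 0.11 for all names on each. With the 75th percentile over all probes 3 of the 4 rose on Agilent, miR-153a being at -0.09.

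Likeness of pattern was measured as the root mean square difference of centred log2 values over 12 arrays, and the 3 nearest names other than the 3 miRNAs themselves were taken for each. The 12 arrays are of both treatments, so the TCDD differences that chose the miRNAs enter these distances. For miR-338 on Agilent these were miR-96 at 0.0818, miR-7a at 0.101 and miR-182* at 0.119 log2, beside a median of 0.700 over 130 names. On Exiqon they were miR-218a at 0.0852, miR-122 at 0.0895 and miR-7a at 0.0916, beside a median of 0.436 over 202 names. MiR-7a, whose Agilent probe shares the 13 bases with that of miR-338, was thus near it on both array types, and its stage change in DMSO embryos was 1.50 ± 0.08 log2 on Agilent and 0.96 ± 0.03 on Exiqon. With TCDD, miR-7a differed from DMSO at 60 hpf by 0.09 ± 0.08 on Agilent and by 0.02 ± 0.03 on Exiqon. At 36 hpf it differed by 0.01 ± 0.08 on Agilent, with overlap. On Exiqon the 36 hpf difference was -0.09 ± 0.03, with every TCDD array below every DMSO array.

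For miR-101a the nearest names outside the 3 miRNAs were miR-10d, miR-140* and miR-216b on Agilent, at 0.260 to 0.266 log2, and miR-140*, miR-190 and miR-34 on Exiqon, at 0.0555 to 0.0806. MiR-140*, the passenger strand of a cartilage miRNA, was among them on both, with stage changes in DMSO embryos of 0.54 and 0.55. The median distance of names from miR-101a was 0.509 on Agilent and 0.321 on Exiqon. For miR-101b the nearest names were miR-24, miR-144 and miR-30e on Agilent, at 0.170 to 0.208 beside a median of 0.359. On Exiqon they were miR-29b, miR-126 and miR-21, at 0.0263 to 0.0447 beside a median of 0.139. MiR-24 is of the clusters set apart when the miRNAs were picked for higher levels with TCDD. Nothing is read from its nearness to miR-101b. MiR-144, whose probe shares 6 bases at its end with that of miR-101b, had a stage change in DMSO embryos of 0.34 ± 0.14 on Agilent, which turned to -0.17 under quantile normalization, and of 0.46 ± 0.04 on Exiqon. The variants miR-101a and miR-101b were 0.259 log2 apart on Agilent, where miR-101b ranked first among all names by nearness to miR-101a, and 0.264 apart on Exiqon, where it ranked 77. The Agilent distances of the pair include replicate 2 of the 60 hpf DMSO group, where neither probe was detected and both values were low. These distances were not computed without that array.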

How the data were processed

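The Agilent values deposited by the authors are 1-colour (Cy3) spot intensity values from Agilent Feature Extraction 9.5, per the submitters' processing notes, background-subtracted and not scaled between arrays. The Exiqon files hold spot and background intensity in both channels, per the file headers, written by image analysis software (version 8.0.1). The labels put the sample in Hy3 and the reference pool in Hy5. Of the values that the authors deposited as processed, those of Agilent equal the processed signal (largest difference 0), and those of Exiqon behave as a log2 ratio (correlation 0.901 to 0.973 and slope 1.14 to 1.22 against the scanner files' ratio, array medians -0.02 to 0.16). How the authors normalized them is not stated in what was used here.

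Agilent outlier spots (3.05% to 6.39% per array) and flagged Exiqon spots (4.51% to 18.3%) were left out. Agilent signals were scaled, floored and averaged by probe. Exiqon channels were background-corrected by normexp (offset 50), normalized by global loess, and averaged by probe, with detection set at a sample channel 2 SDs over background for a share of spots of 0.5 or more. Each name took its brightest probe and entered the tests if 1 group or more detected it on its 3 arrays. A linear model of 4 group means was fitted over the 12 arrays of each type with limma 3.58.1 in R 4.3.3 (package data.table, version 1.17.8). The threshold was 0.05 after Benjamini-Hochberg adjustment over all names tested. P-values measure the spread between biological replicates as labelled.

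Across stages, Exiqon arrays had correlations of -0.63 to -0.52. The direction of the Exiqon ratios follows the dyes stated in the labels, with the channel of brighter Hy3 spots on each array taken as the sample. The labels describe the reference as pooled RNA samples, against which the stages could take opposite signs. The 3 miRNAs, the lists and the tests were chosen with earlier results of these data known. Named miRNAs are the 3 members, short lists of EZH2 repressors, oligodendrocyte and neural miRNAs, and the 3 names nearest in pattern. Names that share a probe run with a member were added after their values were seen. A rule on shared seeds could not be applied. The fit and the permutation test were tested on simulated data. Alternatives covered scaling, background correction, filters, choice of probe, flags, slide, image analysis day, replicate number and leaving out arrays.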

Additional observations from a re-analysis of the deposited data

Results flagged for a closer look

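On Exiqon the TCDD difference of miR-101a was -0.039 log2 at 36 hpf and 0.17 at 60 hpf, with each TCDD array below the DMSO mean at 36 hpf and above it at 60 hpf. MiR-101b moved in the same manner there, from -0.041 to 0.073. This holds for the probes used: the other Exiqon probes gave 0.073 and 0.14 for miR-101a and 0.029 and 0.052 for miR-101b at 36 and 60 hpf. The difference between the stages was not tested, since these contrasts chose the miRNAs. The 36 hpf DMSO arrays carry a scan number of their own. On Agilent both miRNAs were higher with TCDD at both stages. At 60 hpf that rested on replicate 2 of the DMSO group, without which the differences were -0.050 for miR-101a and 0.0033 for miR-101b.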

How the results depend on the processing

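MiR-338 kept its stage change and its call on both array types in both treatments under every alternative run, from 0.82 to 1.55 log2. The 6 pair differences were rerun only with 1 array left out and on the deposited tables, and kept their calls, though in the deposited Exiqon table miR-338 minus miR-101a was 0.22 against 0.33; the Agilent table holds the same signals and gave the same values. The miR-101 pair on Agilent did not. With the 75th percentile over all probes the stage change of miR-101a was 0.35 in DMSO embryos (limma adjusted p = 0.132) and 0.39 in TCDD embryos (0.0960), and that of miR-101b was -0.17 and -0.045. Under quantile normalization miR-101a was at -0.056 and -0.14, and miR-101b at -0.52 and -0.47. In DMSO embryos miR-101a, at 0.61, missed the threshold without a filter (limma adjusted p = 0.0933) and with only the groups compared (0.0696), and miR-101b in TCDD embryos, at 0.29, passed with only the groups compared (0.00530). Leaving out 1 array at a time gave 0.38 to 0.95 for miR-101a and -0.092 to 0.36 for miR-101b in DMSO embryos, and 0.24 to 0.35 for miR-101b in TCDD embryos. On Exiqon miR-101b in DMSO embryos passed at 0.28 with median centring, 0.10 with the mean of its probes and 0.23 in the authors' deposited table, and in TCDD embryos it missed at 0.11 on the sample channel alone, where 100 names passed in TCDD embryos (77 higher, 23 lower) against 155. The median TCDD difference of the 3 miRNAs at 60 hpf on Agilent was 0.0081 with normexp and 0.0033 to 0.46 with 1 array left out. On Exiqon it was 0.22 at 60 hpf with median centring, 0.012 on the sample channel, 0.22 with an offset of 16 and 0.12 on the first image analysis day, and at 36 hpf -0.00040 on the sample channel, 0.017 with the mean of probes and 0.013 in the deposited table. The causes were not tested. Requiring detection on all 12 arrays left no Agilent value for the miR-101 pair. Leaving out replicate 2 of the 60 hpf DMSO group in the Agilent TCDD stage change was chosen after seeing the data. Samples share only replicate numbers: 8 of 12 Agilent and 5 of 12 Exiqon same-number correlations were over 0.1. With replicate number as a block no call on the 3 miRNAs changed (miR-101a on Agilent in DMSO embryos, 0.61, limma adjusted p = 0.00824), and 106 and 111 Agilent names and 150 and 153 Exiqon names passed. Dim miR-101 probes near the floor limit the Agilent values. On Exiqon the miR-101a probe used was also dim, and its stage change in DMSO embryos ran from 0.26 to 0.72 over the alternatives.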
